A study of Drosophila melanogaster with 6 samples.

Results

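Of the 17477 genes in the count table of larval body wall muscle, 37 were nearly absent from the libraries of one group and present in those of the other. They were chosen by their raw counts alone, as genes with at most 3 counts summed over the 3 libraries of one group and at least 40 summed over the 3 libraries of the other. Copies of Hsp70 and symbols starting with Lsp, Fbp, Cpr, Twdl, Osi, Obp or lncRNA: were left out, and 9 such genes would otherwise have met the limits. Of the 37 genes, 21 were nearly absent from control larvae and 16 from exercised larvae. Since the counts of both groups chose the genes, their differences between the groups are given as a description, and no test of them is used.

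The libraries came from larvae of the third instar and of mixed sex, with 3 biological replicates per group. Exercised larvae carried 1 copy each of OK6-Gal4bc, which drives expression in motor neurons, and of UAS-CsChrimbc, which encodes a cation channel opened by red light, so that light pulses made the body wall muscles contract. Control larvae were w1118 with neither transgene, and received all-trans retinal, the cofactor of the channel, and the same 2 h of light. The lines with the transgenes were backcrossed to that same w1118 stock, but genotype and contraction differ together between the groups, so that their parts in a difference cannot be told apart. The driver is not confined to motor neurons, since a subset of neuroendocrine CCAP neurons also expresses it. The tissue is dissected body wall muscle with its cuticle, which other organs can adhere to.

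A gene read in 1 group and almost not at all in the other can differ in several known ways. Expression of a gene that a tissue uses little can start or stop with a stimulus, with the hormone pulses that end larval life, or with the sex or the genetic background of the animals, since inbred fly stocks differ in promoters, in insertions and in deletions of whole genes. A few counts can also come from a piece of another organ left in a dissection. Which of these applies to the genes below was not tested.

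Library totals were 20485254 to 23953341 counts in control and 19625425 to 22063283 in exercised larvae. At this depth, a gene with 0 counts over the 3 libraries of a group could still have had 3, which corresponds to 0.0441 CPM (counts per 1000000 of the scaled library) in control and 0.0486 CPM in exercised larvae. The white gene w, mutant in w1118 and carried as an eye color marker by many transgenes, had 2, 1 and 1 counts in control replicates 1 to 3 and 2404, 791 and 2162 in exercised replicates 1 to 3, and thus missed the lower limit by 1 count. The level of roX1, a noncoding RNA by which males raise the expression of their X chromosome, was 160, 157 and 79.4 CPM in the control replicates and 56.2, 4.03 and 4.74 CPM in the exercised ones (adjusted p = 0.203). roX2, its partner, summed to 265 counts in control and 31 in exercised larvae (adjusted p = 0.0987). msl-2, a protein-coding gene of the same complex, was at 28.2, 24.9 and 16.9 CPM in control and at 10.2, 6 and 5.44 CPM in exercised larvae, and passed (log2 ratio -1.69 ± 0.298, adjusted p = 0.0115). Here and below, tests are edgeR's quasi-likelihood test over all 9127 genes kept by its low-count filter, with Benjamini-Hochberg adjustment, and log2 ratios are of exercised to control larvae ± standard error. Muscle markers were abundant, with a summed level over 6 genes of 106070 to 120477 CPM per library, and none of the 6 passed in either direction with edgeR or with DESeq2 (0 at an unadjusted p under 0.05). Fat body markers summed to 551 and 411 CPM in control replicates 1 and 2 and to 3378 to 4326 CPM in the other 4 libraries.

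**Figure D1:**
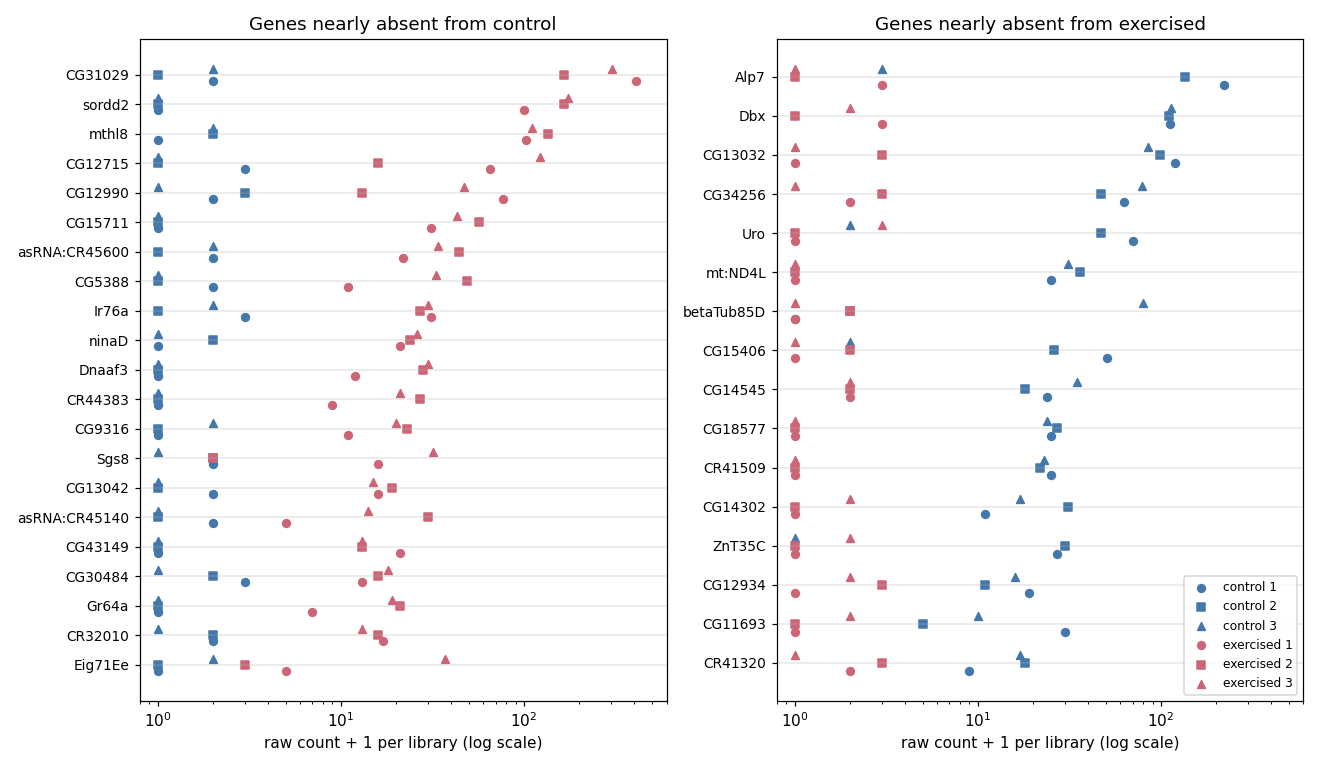
Raw counts plus 1 on a logarithmic axis for each of the 37 genes (rows, ordered by the summed count of the group where the gene was present) in each of the 6 libraries (blue control, red exercised, with circles, squares and triangles for replicates 1, 2 and 3). The highest gene was CG31029 with 408 counts in exercised replicate 1, and in the right panel control replicate 3 of Alp7, Uro, CG15406 and ZnT35C lies among the exercised libraries, at 0 to 2 counts.

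The 37 genes were scarce where they were present. The genes nearly absent from control summed to 42 to 872 counts in exercised larvae, with a median of 67, and those nearly absent from exercised larvae to 41 to 358 counts in control, with a median of 75. In the group where each was present, the median level was 1.09 CPM in either direction, against 15.9 CPM in exercised and 15.7 CPM in control larvae over all genes tested. In the other group, 9 genes had 0 counts, 11 had 1, 9 had 2 and 8 had 3. Over the replicates of the present group, the coefficient of variation had a median of 39.4% (range 3.69% to 134%) for the genes nearly absent from control and of 38.9% (range 1.83% to 170%) for those nearly absent from exercised larvae. Other tested genes with summed counts in the same ranges had lower medians, 15.4% in exercised and 20.7% in control larvae. Counts were not matched within those ranges. Exercised replicate 1 was the lowest exercised library for 12 of the 21 genes, and exercised replicate 2 the highest for 13.

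The low-count filter kept 16 of the 21 genes nearly absent from control and 8 of the 16 nearly absent from exercised larvae. Over all genes tested, 18.8% passed, 10.3% higher and 8.52% lower in exercised larvae. CPM ranges of the groups did not overlap for 21 of the 21 and for 11 of the 16 genes. The limits on summed counts make such a separation likely from the start. The 39.2% of all genes tested without overlap is thus no fair comparison. For Sgs8 the separation came from library scaling alone. Its raw count was 1 in exercised replicate 2 (0.0517 CPM) and in control replicates 1 and 2 (0.041 and 0.0461 CPM).

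The genes just inside the limits were CR41320 with 41 counts in control and 3 in exercised larvae, Eig71Ee with 1 and 42, CG11693 with 42 and 1, and CG12934 with 43 and 3. Just outside lay CG17751 with 39 and 1, CG8329 with 35 and 2, Ucp4C with 1 and 34, and CG10086 with 34 and 3. Besides w, a further 11 genes had exactly 4 counts in one group and at least 40 in the other.

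By chromosome, the genes were spread over all arms. The X chromosome held 4 of them, 2L held 5, 2R held 6, 3L held 11 and 3R held 8, with 1 each on chromosome 4, the Y chromosome and the mitochondrial genome. The share on 3L was 29.7%, while 19.7% of the annotated genes of the table lie on 3L. All 4 genes on X were nearly absent from control, as were 7 of 11 on 3L, and on 3R 5 of 8 were nearly absent from exercised larvae. Of all tested genes, 17.3% passed the edgeR test on X, 18.8% on 2L, 19% on 2R, 21.4% on 3L and 17.8% on 3R. These are descriptions of where the genes lie, with no test of the shares.

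**Figure D2:**
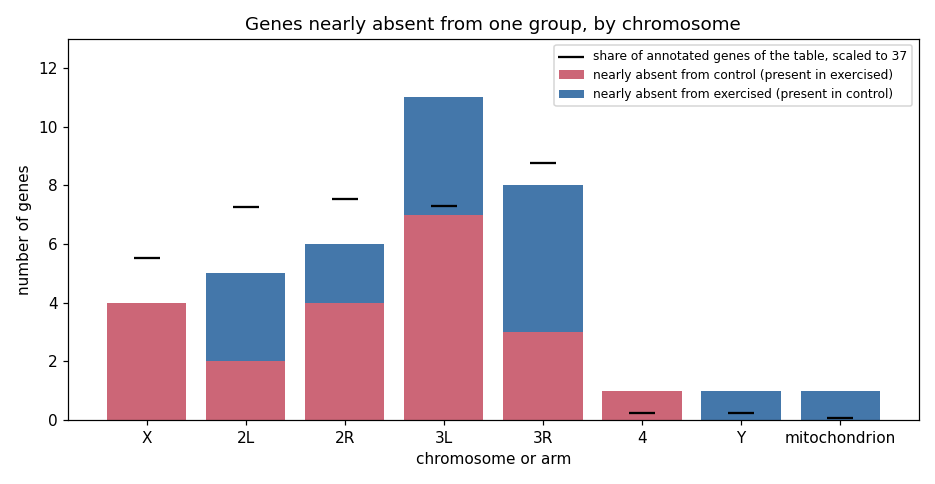
Number of the 37 genes on each chromosome or arm (bars, red for genes nearly absent from control and blue for genes nearly absent from exercised larvae), with a black line where the share of all annotated genes of the table would place 37 genes. The bar of 3L reaches 11 genes, and the bar of X holds 4 genes of 1 direction.

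Only 4 of the 37 genes had another of them within 250 kb, as 2 pairs, and both pairs were nearly absent from control. The first pair was mthl8 and CG43149, at the left end of 3L and 27564 bases apart. mthl8 (FBgn0052475, 3L from 22428 to 26308 of release 6), of the methuselah-like family of G protein-coupled receptors, had 0, 1 and 1 counts in control and 101, 134 and 110 counts in exercised replicates 1 to 3, 190 times the scaled control count (95% counting interval 52.2 to 1574). CG43149 (3L from 53873 to 54751) had 0 counts in each control library and 20, 12 and 12 in the exercised ones, at least 16.1-fold higher. For both genes every exercised library was above every control library. Counting intervals here and below are exact binomial intervals on the summed counts, which hold no spread between larvae, and a bound against 0 counts takes 3 counts over the group in their place.

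The second pair was sordd2 and CR44383 on X, which lie 10 bases apart on opposite strands. sordd2 (FBgn0052581, X from 15796908 to 15799162) had 0 counts in every control library and 99, 165 and 172 counts in exercised replicates 1 to 3, at least 160-fold higher. CR44383 (X from 15796477 to 15796897), a pseudogene, also had 0 counts in control, and 8, 26 and 20 in exercised larvae, at least 19.8-fold higher. Past the pseudogene, sordd1, whose symbol marks it as a relative of sordd2, had 867, 751 and 768 counts in control and 816, 727 and 791 in exercised larvae. After scaling, sordd1 was at 35.5, 34.7 and 35.1 CPM in control and slightly higher, at 39, 37.6 and 36.8 CPM, in exercised larvae, and its log2 ratio of 0.11 ± 0.0717 (adjusted p = 0.343) was not past the threshold. On the other side of sordd2, CG15602 had 368 counts in control and 340 in exercised larvae. The near-zero counts in control were thus limited to sordd2 and the pseudogene among these 4 neighbors. The sources used here do not say whether a read that maps to several genes was counted, and the counts of sordd2, CR44383 and sordd1 depend on it where their sequences are alike.

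CG31029 (FBgn0051029, 3R from 30129279 to 30132395), which is uncharacterized, was the highest of all 37 genes. It had 1, 0 and 1 counts in control and 408, 164 and 300 in exercised replicates, 480 times the scaled control count (95% counting interval 132 to 3968). Its neighbor Ppi1, 159 bases away, had 0 counts in every control library and 4, 5 and 4 in the exercised ones, too few for the filter. The glycolytic gene Tpi, 585 bases away on the other side, rose by a log2 ratio of 0.51 ± 0.0699 (edgeR adjusted p = 0.00281). CG15711 (2R from 16363551 to 16365895) had 0 counts in control and 30, 56 and 42 in exercised larvae, at least 47-fold higher.

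The other genes on X were less even between the exercised libraries. CG12715 (X from 13052847 to 13055328) had 2, 0 and 0 counts in control and 64, 15 and 122 in exercised larvae. CG12990 (X from 17669208 to 17671888) had 1, 2 and 0 counts and then 76, 12 and 46. Exercised replicate 2 was lowest for both genes, though still above every control library. CG12715 lies within the gene rsh, on the other strand, and rsh had 44 counts in control and 59 in exercised larvae. CG12990 shares 164 exon bases with the abundant gene beta-Spec on the opposite strand, which had 48523 counts in control and 48898 in exercised larvae.

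Of the named genes nearly absent from control, 2 encode sensory receptors, 1 a scavenger receptor and 1 a factor of cilia. Ir76a (3L from 19799278 to 19803427), of the ionotropic receptors that detect odors, had 2, 0 and 1 counts in control and 30, 26 and 29 in exercised larvae, with the smallest coefficient of variation (3.69%) among the 21. Gr64a (3L from 4026769 to 4028600), a gustatory receptor for sugars, had 0 counts in control and 6, 20 and 18 in exercised larvae. Of the genes that cluster with it, Gr64f had 1 count in control and 10, 2 and 6 in exercised larvae, Gr64e had 1 count in all, and Gr64b, Gr64c and Gr64d had 0. Gr64b and Gr64c are annotated over the same interval, and reads of such a pair may not be counted. ninaD (2L from 18081628 to 18083608), a scavenger receptor for carotenoid uptake, had 0, 1 and 0 counts and then 20, 23 and 25. Its relative santa-maria did not pass (88 and 61 counts, adjusted p = 0.551), nor did ninaB, which had 2 and 4 counts, reach the filter. Dnaaf3 (2R from 18452737 to 18454462), a factor for the assembly of axonemal dynein in cilia, had 0 counts in control and 11, 27 and 29 in exercised larvae, at least 24.6-fold higher.

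Other genes of the families of Dnaaf3 and mthl8 were counted from lists. Of 11 tested genes of cilia and flagella, the list which Dnaaf3 was not part of, 1 was lower (Tektin-C, with 2349 counts in control and 13 in exercised larvae, log2 ratio -7.32 ± 0.291, adjusted p = 2.28e-05), none was higher with edgeR or DESeq2 (2 higher at an unadjusted p under 0.05) and 10 did not pass, with a median log2 ratio of -0.09 against -0.01 over all genes tested. Dnaaf4 and Dnaaf6 had 10 and 14 counts in control and 6 and 8 in exercised larvae. Of 10 tested methuselah-like receptors other than mthl8, 3 were higher (mthl1, mthl5 and mthl14), while 10.3% of all genes tested were higher, none was lower with edgeR (2 lower at an unadjusted p under 0.05, 1 with DESeq2) and 7 did not pass. mthl14 rose by a log2 ratio of 1.22 ± 0.124 (adjusted p = 9.25e-04) and mthl5 by 0.89 ± 0.125 (adjusted p = 0.0031).

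A salivary gland gene and an ecdysone-induced gene were among the 21, both on 3L. Sgs8 (3L from 11508967 to 11509394), which encodes a glue protein secreted before pupariation, had 1, 1 and 0 counts in control and 15, 1 and 31 in exercised larvae, so that exercised replicate 2 was tied with control replicates 1 and 2. Its neighbor Sgs7, 466 bases away, followed the same libraries with 5, 3 and 0 counts in control and 83, 0 and 146 in exercised larvae, and was not tested since the filter left it out. Eig71Ee (3L from 15654472 to 15656010), an ecdysone-induced gene, had 0, 0 and 1 counts in control and 4, 2 and 36 in exercised larvae, so that exercised replicate 3 held 85.7% of its counts. Of the 10 other Eig71E genes, 8 had 0 counts in every library, Eig71Eb had 5 counts and Eig71Ec had 1, all in exercised larvae. Salivary gland markers (8 genes) summed to 30.8, 12.3 and 26.5 CPM in exercised replicates 1 to 3 and to 8.72, 4.38 and 12.8 CPM in control. Sgs4, another glue gene, had 41, 14 and 36 counts in control and 24, 12 and 22 in exercised larvae. None of the 3 tested markers passed with edgeR (2 at an unadjusted p under 0.05, 3 with DESeq2). Neither Sgs8 nor Eig71Ee would meet the limits without exercised replicate 3 or without exercised replicate 1. Without exercised replicate 3, only 10 of the 21 genes would meet them. The part of Sgs8 and Eig71Ee in the RNA of the dissection was not tested.

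Antisense transcripts made up 2 of the 21 genes. asRNA:CR45600 (3R from 15136985 to 15140121) had 1, 0 and 1 counts in control and 21, 43 and 33 in exercised larvae. It shares 1731 exon bases with CG3984 on the other strand, which had 0 counts in all libraries, and 20 with CG6912 on its own strand. CG6912 rose from 44 to 510 counts, a log2 ratio of 3.65 ± 0.395 (adjusted p = 0.00124). asRNA:CR45140 (2R from 12867609 to 12869783) had 1, 0 and 0 counts and then 4, 29 and 13, and shares 429 exon bases with CG17574, which rose by a log2 ratio of 0.67 ± 0.102 (adjusted p = 0.00458). The sources used here do not say whether the counting used strand, so that reads of such overlapping pairs cannot be told apart with certainty.

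The remaining genes nearly absent from control are uncharacterized genes and a pseudogene. CG5388 (3R from 22334257 to 22340307) had 1, 0 and 0 counts in control and 10, 48 and 32 in exercised larvae. CG9316 (2L from 20724209 to 20726551) had 0, 0 and 1 counts and then 10, 22 and 19. CG13042 (3L from 16307846 to 16308480) had 1, 0 and 0 counts and then 15, 18 and 14. CG30484 (2R from 13846393 to 13849832) had 2, 1 and 0 counts and then 12, 15 and 17, and the pseudogene CR32010 (chromosome 4 from 12640 to 25054) had 1, 1 and 0 and then 16, 15 and 12. Each of these 5 genes had at least 10 counts in every exercised library, unlike Gr64a, Sgs8, Eig71Ee, CR44383 and asRNA:CR45140.

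Among the 16 genes nearly absent from exercised larvae, Dbx had the most even control libraries of those with over 100 counts. Dbx (FBgn0261723, 3L from 1921307 to 1933602), a homeobox transcription factor of interneurons, had 111, 110 and 113 counts in control and 2, 0 and 1 in exercised larvae, 101 times the scaled exercised count (95% counting interval 34.3 to 493). dsb, a scavenger receptor gene 11109 bases away, moved the other way, from 22 to 77 counts, a log2 ratio of 1.93 ± 0.378 (adjusted p = 0.0119). The 6 measured markers of neurons and glia summed to 44.4 to 52.3 CPM in control and 34.1 to 48.5 CPM in exercised larvae. None of them passed with edgeR or DESeq2 (1 lower at an unadjusted p under 0.05).

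CG13032 and CG34256 also lie on 3L. CG13032 (3L from 16673964 to 16676264) had 118, 98 and 84 counts in control and 0, 2 and 0 in exercised larvae. It lies 408 bases from zetaCOP, which did not pass (log2 ratio -0.02 ± 0.0937, adjusted p = 0.931). On the other side, 141 bases away, Lasp and CG43954 are annotated over the same interval, and both had 0 counts in every library. Reads of such a pair may not be counted, so that these 0 counts do not show that either gene was silent. The long noncoding RNA lncRNA:CR45179, left out by its symbol, lies further along (3L from 16689268 to 16697897) and had 48 counts in control and 2 in exercised larvae. CG34256 (3L from 18988736 to 18989815) had 62, 46 and 78 counts in control and 1, 2 and 0 in exercised larvae. Both of its neighbors were lower too. CG11619, 412 bases away, was at 9.46, 9.92 and 12.3 CPM in control and at 0.335, 0.982 and 0.139 CPM in exercised replicates, a log2 ratio of -4.46 ± 0.486 (adjusted p = 0.00179). CG18135, 210 bases away on the other side, was at 119, 106 and 149 CPM in control and at 19.6, 33.2 and 21.9 CPM in exercised replicates, a log2 ratio of -2.32 ± 0.232 (adjusted p = 0.00148). The groups did not overlap for either neighbor.

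mt:ND4L and CR41509 lie outside the autosomes and X and had 0 counts in every exercised library. mt:ND4L (mitochondrial genome from 9545 to 9835) encodes a subunit of respiratory complex I and had 24, 35 and 30 counts in control, at least 27-fold more than in exercised larvae. It shares 1 base with mt:ND4, a subunit gene of the same complex on the same strand, which had 13805 counts in control and 12139 in exercised larvae and did not pass (log2 ratio -0.04 ± 0.101, adjusted p = 0.822). None of the 11 other tested mitochondrial genes passed with edgeR or with DESeq2 (0 at an unadjusted p under 0.05). CR41509, a pseudogene on the Y chromosome (3041350 to 3042787), had 24, 21 and 22 counts in control, with a coefficient of variation of 1.83%. CR41507, the only other annotated gene on Y with at least 20 counts, had 6, 5 and 7 counts in control and 6, 11 and 6 in exercised larvae, while the Y-linked fertility genes kl-2, kl-3 and kl-5 had 0 counts in every library. The difference of CR41509 was thus not shared by CR41507. FDY, another gene on Y, had 4, 6 and 1 counts in control and 0, 1 and 0 in exercised larvae. The levels of roX1, roX2 and msl-2 were also lower in every exercised library than in every control library. Within the groups they did not follow CR41509. roX1 was at 79.4 CPM in control replicate 3 and 56.2 CPM in exercised replicate 1, where CR41509 had 22 and 0 counts. The part of the share of males in these counts was not tested.

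A further set of genes nearly absent from exercised larvae was also nearly absent from control replicate 3. Alp7 (2R from 22203694 to 22205593), an alkaline phosphatase gene, had 221, 135 and 2 counts in control and 2, 0 and 0 in exercised replicates 1 to 3. Uro (2L from 7780085 to 7781415), the urate oxidase gene of the Malpighian tubules, the excretory organ of the fly, had 69, 46 and 1 counts and then 0, 0 and 2. CG15406 (2L from 3309222 to 3311682), which lies inside the gene CG3277, had 50, 25 and 1 counts and then 0, 1 and 0. ZnT35C (2L from 15228728 to 15247714), a zinc transporter gene of the same organ, had 26, 29 and 0 counts and then 0, 0 and 1. In all 4, control replicates 1 and 2 were high and the other 4 libraries had at most 2 counts, so that the groups overlapped.

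Other genes outside the limits, named after their values were seen, also had their lowest control count in replicate 3. Alp8, the neighbor of Alp7 at 2870 bases, had 100, 73 and 0 counts in control and 5, 4 and 10 in exercised larvae. The genes CG17752 and CG17751 on 3R had 80, 33 and 1 and 30, 8 and 1 counts in control, and CapaR, the receptor of a tubule neuropeptide, had 7, 9 and 2 counts in control and 0 in all exercised libraries. Irk3 and Oatp58Dc were less uniform, with 283, 190 and 47 and with 33, 23 and 6 counts in control. In exercised larvae, Irk3 had 19, 85 and 13 counts and Oatp58Dc had 2, 3 and 20, and neither passed (log2 ratios -1.95 ± 0.964 and -1.16 ± 0.872, adjusted p = 0.235 and 0.404). Oatp58Db had 6 counts, all in control replicate 1. Alp4 and Alp12, whose symbols mark them as relatives of Alp7, did not share the split. Alp4 had 106, 96 and 85 counts in control and 111, 121 and 114 in exercised larvae. Alp12 had 262, 174 and 208 counts in control and 161, 168 and 226 in exercised larvae. Neither passed with edgeR (adjusted p = 0.0913 and 0.801). Of 10 genes, the 4 members and the 6 genes named here without an Alp symbol, 2 were tested with edgeR and none passed (0 at an unadjusted p under 0.05). DESeq2, which includes genes of lower counts, called 7 of the 10 lower, and 857 of all 10572 genes it tested. The members were chosen on those counts and the other 6 after their values were seen, so that the 7 calls are no independent support. None of Alp7, Uro, CG15406, ZnT35C and Alp8 passed the low-count filter. Fat body markers moved the opposite way between the control libraries, being low where these genes were high. In bulk tissue, fewer cells of a type and less RNA per cell cannot be told apart, and the part of tubule tissue in these counts was not tested.

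betaTub85D (3R from 9408383 to 9410282), a tubulin gene of the testis, rested on 1 library. It had 0, 1 and 79 counts in control and 0, 1 and 0 in exercised larvae, so that control replicate 3 held 98.8% of its counts and without it the gene would not meet the limits. Of the other testis and germ line markers, Mst98Cb, dj, can and aly had 0 to 2 counts in every library, too few to show whether they followed it. In control replicates 1 to 3, twe was at 2.74, 2.08 and 1.1 CPM and bol at 42.6, 46.8 and 47 CPM, neither with a like rise in replicate 3. Mst87F had 11, 1 and 2 counts in control and 7, 7 and 6 in exercised larvae. fzo, a mitofusin of spermatids, was lower (log2 ratio -2.78 ± 0.699, adjusted p = 0.0306), with 17, 15 and 16 counts in control and 0, 4 and 2 in exercised larvae. It was the 1 lower gene of 3 tested testis markers, none was higher with edgeR or DESeq2 (0 higher at an unadjusted p under 0.05).

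**Figure D3:**
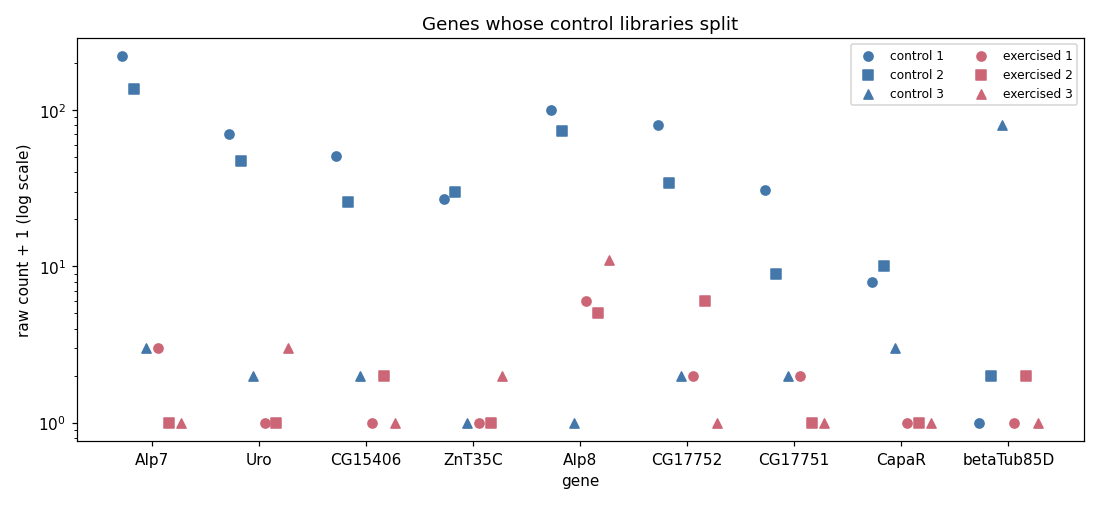
Raw counts plus 1 on a logarithmic axis for 9 genes in the 6 libraries (blue control, red exercised, with circles, squares and triangles for replicates 1, 2 and 3). For Alp7, Uro, CG15406, ZnT35C, Alp8, CG17752, CG17751 and CapaR, control replicates 1 and 2 lie above control replicate 3, and for betaTub85D control replicate 3 stands alone at 79 counts.

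The other 6 genes nearly absent from exercised larvae had few counts. CG18577 (3R from 11196092 to 11197285) had 24, 26 and 23 counts in control and 0 in every exercised library, at least 22.1-fold more. CG14545 (3R from 25850410 to 25851291) had 23, 17 and 34 counts in control and 1 in each exercised library. CG14302 (3R from 18732681 to 18733034) had 10, 30 and 16 counts and then 0, 0 and 1, and CG12934 (2R from 10648888 to 10649830) had 18, 10 and 15 and then 0, 2 and 1. The pseudogene CR41320 (3L from 26165235 to 26178793) had 8, 17 and 16 counts and then 1, 2 and 0. CG11693 (3R from 8308881 to 8310778) had 29, 4 and 9 counts and then 0, 0 and 1, with control replicate 1 holding 69% of its counts.

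By structure, 31 of the 37 genes encode proteins, 83.8% against 98% of the annotated genes tested, and the others are 4 pseudogenes and 2 antisense RNAs. The median length of their merged exons was 1646 bases, against 2146 bases over the annotated genes tested, and 13.5% against 9.1% had a single exon. The 37 were drawn without the low-count filter, from a table whose annotated genes go the other way on each trait. Over all of these, 79.8% encode proteins, the median length was 1422 bases and 26.5% had a single exon. The lncRNA: symbols, left out of the 37, are part of that table. Of the 37 genes, 28 overlapped no other annotated gene and 9 did. Of the 9, 7 shared exon bases with another gene, and 2, CG12715 and CG15406, lay wholly inside one. CG12715 is in both classes, and Dbx, which overlapped other genes without sharing exon bases, is in neither.

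Genes beside the 37 were chosen by position, which the choice of the 37 did not use, and could be tested. Of the 5 annotated genes on each side of every member, 161 were tested, and 37 of these passed, 23%, close to the 18.8% of all genes tested. 18 were higher and 19 lower in exercised larvae, and the median size of the log2 ratio was 0.27, against 0.23 over all genes tested. The directly adjacent genes, a division chosen after their values were seen, stood apart from the others. Of 33 tested, 15 passed, 45.5%, and 10 passed with at least a 2-fold change, 30.3% against 6.75% of all genes tested. Of the genes 2 to 5 places away, 22 of 128 passed, 17.2%, and 3.91% passed with at least a 2-fold change. Among the adjacent genes that passed, 11 moved in the direction of their member and 4 in the other direction. Without the adjacent genes that share exon bases with a member, 13 of 28 passed, 46.4%. Over the alternative settings 10 to 16 adjacent genes passed, 10 of them without exercised replicate 3 and 11 without control replicate 2. No test of these shares was made, since adjacent genes differ in level and are not independent.

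**Figure D4:**
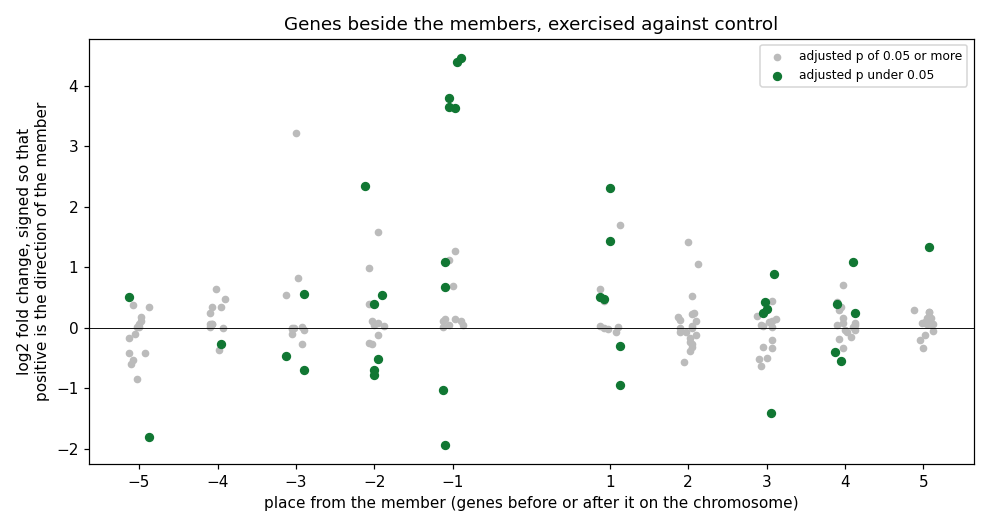
Log2 ratio of the tested genes beside the 37, by their place before (negative) or after (positive) the member along the chromosome, with the sign turned so that positive values are in the direction of the member (green for an edgeR adjusted p under 0.05, grey for the others). Of the 8 largest positive values that passed, 7 belong to directly adjacent genes, led by CG11619 at 4.46 and CG5391 at 4.39.

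Adjacent genes that rose beside genes nearly absent from control included CG13063, 640 bases from CG13042, which was at 0.246, 0.369 and 0.685 CPM in control and at 5.69, 7.13 and 5.35 CPM in exercised larvae (log2 ratio 3.80 ± 0.339, adjusted p = 5.57e-04). CG5391, 106 bases from CG5388, was at 47.9, 6.09 and 11.7 CPM in control and at 437, 473 and 475 CPM in exercised larvae, a log2 ratio of 4.39 ± 0.885 (adjusted p = 0.0309). Its neighbor CG13862 rose too (log2 ratio 2.35 ± 0.172, adjusted p = 2.38e-04), so that CG5388 ended a run of 3 genes with higher counts in exercised larvae. CarT, a carcinine transporter gene of photoreceptors 599 bases from CG9316, rose by a log2 ratio of 1.44 ± 0.361 (adjusted p = 0.0307). CG5391 did not pass without control replicate 3 or without exercised replicate 1, 2 or 3 (adjusted p = 0.0769, 0.0867, 0.0756 and 0.0911), and CarT did not pass without any 1 library other than exercised replicate 2 (adjusted p from 0.0734 to 0.104).

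In the other direction, CG11594 beside Gr64a (log2 ratio -1.02 ± 0.173, adjusted p = 0.00706) and CG30116 beside Dnaaf3 (log2 ratio -0.95 ± 0.165, adjusted p = 0.0074) were lower although their members were present in exercised larvae. TORIP beside Ir76a fell by 0.30 ± 0.0872 in its log2 ratio (adjusted p = 0.048), but did not pass when any 1 of the 6 libraries was left out (adjusted p from 0.0719 to 0.172).

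Beside the genes nearly absent from exercised larvae, Elp2, a subunit gene of the Elongator complex 253 bases from CG12934, was at 29.8, 32.3 and 29.8 CPM in control and at 16.3, 12.4 and 14.3 CPM in exercised larvae (log2 ratio -1.09 ± 0.117, adjusted p = 0.00106). CG7715, 4212 bases from CG14302, fell by 3.64 ± 0.879 in its log2 ratio (adjusted p = 0.0326), and CG7720, 5 places from CG14302, fell by 1.33 ± 0.154 in its log2 ratio (adjusted p = 0.00147). CG40160, the nearest annotated gene to CR41320 at 37021 bases, fell by 0.48 ± 0.113 in its log2 ratio (adjusted p = 0.0243). CG7715 did not pass when replicate 2 or 3 of either group was left out (adjusted p from 0.0711 to 0.103), nor CG40160 when control replicate 1 or 2, or exercised replicate 1 or 3, was left out (adjusted p from 0.0525 to 0.091).

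The numbers of 21 and 16 genes depend on the limits and on single libraries. With the limits set for each library, at most 1 count in each library of one group and at least 10 in each of the other, 12 genes were nearly absent from control and 5 from exercised larvae, the latter being CG18577, CG14545, CG14302, CR41509 and mt:ND4L. Summed over the remaining libraries, the numbers were 10 and 34 without exercised replicate 3, 13 and 36 without exercised replicate 2, 14 and 23 without exercised replicate 1, 40 and 12 without control replicate 3, 33 and 11 without control replicate 2, and 39 and 11 without control replicate 1. Such sums fall with every library left out, so that genes are lost from the present side and gained on the absent side by construction.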

How the data were processed

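Per the labels, the authors used FastQC, STAR with release 6 of the genome, and featureCounts. The deposited values are raw counts, 1 column for each library. The sources used here do not give tool versions, the annotation release, strandedness or the treatment of multi-mapping reads. Symbols and positions came from the Ensembl annotation of the same assembly for 17200 of 17477 identifiers. None of the identifiers without a symbol met the limits.

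The members, lists and tests were chosen with earlier results of these data known. All 9127 genes kept by filterByExpr were scaled by TMM and tested with edgeR 4.0.16 (R 4.3.3, glmQLFit with robust=TRUE, glmQLFTest), exercised against control, at a Benjamini-Hochberg adjusted p under 0.05. The steps were tested on simulated data. Permuting 3 against 3 libraries for 1 gene gives no exact p under 0.1. CPM are per TMM-scaled library.

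All members are named. Of the genes beside them that passed, those named are the adjacent ones and the 5 largest changes in each direction. Other names were chosen after their values were seen. The alternatives were DESeq2 1.42.0, RLE and upper-quartile factors, no low-count filter, the replicate number as a block, omission of each library, 10 genes on each side and other limits of the rule. The closest protein relatives of the members, planned as a comparison, were not analysed here, and the planned list that paired the sordd genes with Sodh-1 and Sodh-2 was dropped because its common role could not be checked.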

Additional observations from a re-analysis of the deposited data

How the results depend on the processing

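The number of genes that passed the test was 1714 (936 higher and 778 lower) and lay between 827 without exercised replicate 3 and 1781 without exercised replicate 2 when single libraries were left out. With upper-quartile factors 773 were higher and 1003 lower. Same-numbered libraries did not deviate together (correlations of -0.222, 0.00292 and -0.24). Of the other pairs, control replicate 1 with exercised replicate 3 gave 0.293 and control replicate 3 with exercised replicate 1 gave 0.184. The rest lay between -0.00985 and 0.00573. Deviations from a mean of 3 libraries constrain each other, so that these values cannot settle whether the numbers pair the libraries. With the replicate number as a block, 1064 genes passed, and 22 of the genes beside the members in place of 37. Leaving out single libraries, 20 to 34 of the genes beside the members passed, and with 10 genes on each side 67 of 322. Genes nearly absent from control and from exercised larvae numbered 12 and 8 at a limit of at most 1 count, 37 and 26 at most 6 counts, 33 and 43 with at least 20 counts in the other group, and 9 and 7 with at least 80. With counts scaled to the mean library they numbered 21 and 10. Dbx, CG34256, CG14545, CG12934, CG11693 and CR41320 then no longer met the limits. With limits for each library, chosen after the data were seen, the numbers were 12 and 5. Leaving out single libraries gave 10 to 40 and 11 to 36. Among the tested members and the named genes beside them that passed, 41 in all, no fold change changed sign in 451 values. The rule had fixed the direction of the members, and the genes beside them were taken here because they had passed the same test. A change of sign was thus unlikely from the start, and its absence does not show that the results are robust. Other named genes were not run under the alternatives. Depth limits these genes, since 3 counts separate near absence from exclusion. The closest protein relatives were not run.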
